A study of Mus musculus with 2 samples.

Results

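The cells described here were chosen by amacrine genes from mouse retina at postnatal day 8, in 2 droplet-based single-cell libraries. The name amacrine cell fits only part of them: 28.5% were in clusters led by genes of precursors or of other cell types. A barcode was counted as a member when it held at least 500 genes, when at least 4 of 11 amacrine genes (Tfap2a, Tfap2b, Tfap2c, Gad1, Gad2, Slc32a1, Slc6a9, C1ql1, C1ql2, Snhg11 and Cbln2) had at least 1 unique molecular identifier (UMI), and when 10 mitotic genes together stayed under 2000 CPM (a gene's UMIs divided by all UMIs of the barcode, times 1000000). Members were thus chosen by their own transcripts of these genes. By this rule 306 of 3620 barcodes were members in the DKO library and 262 of 5194 in the DKO_Skp2het library, 568 of 8814 in all. The DKO mice carried α-Cre with floxed Rb (Rbf/f) and lacked p107 (p107-/-), and the labels call them tumor-prone. The DKO_Skp2het mice had the same alleles and 1 lost copy of Skp2 (Skp2+/-), and the labels call them tumor-resistant. Both genotypes therefore carried the Rb and p107 mutations, and no library of wild-type retina was analysed here. The tissue was the peripheral retina in which α-Cre is expressed, and the number of animals behind each library is not given in the sources used here. With 1 library per genotype there was no replicate and no test, and every interval below is an exact 95% interval that covers counting error only.

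Amacrine cells are the inhibitory interneurons of the inner retina, and they shape the signals that bipolar cells pass to ganglion cells. Most use GABA, made by the decarboxylases Gad1 and Gad2, or glycine, taken up by the transporter Slc6a9, and both transmitters are loaded into vesicles by Slc32a1. Smaller subtypes add a neuropeptide, acetylcholine or dopamine. Amacrine cells arise from progenitors that pass through Foxn4 and Ptf1a expression and then switch on transcription factors of the Tfap2 family. The pocket proteins Rb and p107 hold back E2F transcription factors and with them DNA replication. Skp2 recruits p27 (Cdkn1b), an inhibitor of cyclin-dependent kinases, to the ligase that targets it for breakdown.

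Members made up 8.45% of DKO barcodes (7.57 to 9.41) and 5.04% of DKO_Skp2het barcodes (4.46 to 5.67), a ratio of 0.597 (0.504 to 0.706). The libraries differed in depth: the median over all barcodes was 4939 UMIs in DKO and 3874 in DKO_Skp2het, and the lowest were 3420 and 2387. When barcodes under 3420 UMIs were left out of both libraries, the ratio was 0.806. Members were deeper than their libraries, with medians of 6355 and 5458.5 UMIs. Just outside the rule, with 3 of the 11 genes and few mitotic UMIs, stood 163 and 150 barcodes, and 93 and 43 more had 4 or more of the genes but too many mitotic UMIs. The highest mitotic level inside the rule was 1937 CPM in DKO and 1881 CPM in DKO_Skp2het, and the lowest outside was 2003 and 2019 CPM. The libraries shared 30 barcodes, none of them a member. Doublet scoring placed 7 DKO and 17 DKO_Skp2het members among the highest scores.

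The genes of the rule were spread unevenly over its members. Tfap2b, an AP-2 transcription factor, was detected in 69.0% of DKO members (63.4 to 74.1) and 64.1% of DKO_Skp2het members (58.0 to 69.9), and in none of the 36 and 45 microglia taken as background. Snhg11, a long noncoding RNA of neurons, was detected in 65.4% and 64.9% of members, again against none of the microglia. The microglia were deeper than the members, at medians of 8978.5 and 6918 UMIs. Gad1 was detected in 40.2% and 35.1% of members, and Cbln2, a secreted synaptic organizer, in 26.5% and 22.1%. These shares chose the members and are a description. Pax6, a transcription factor of amacrine cells that is no gene of the rule, was detected in 98.0% (95.8 to 99.3) and 95.04% (91.7 to 97.3), but also in 16.7% and 17.8% of microglia. Meis2, a homeobox factor of GABA amacrine cells, was detected in 70.3% (64.8 to 75.3) of DKO and 60.7% (54.5 to 66.6) of DKO_Skp2het members, against 5.56% and 6.67% of microglia.

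**Figure D1:**
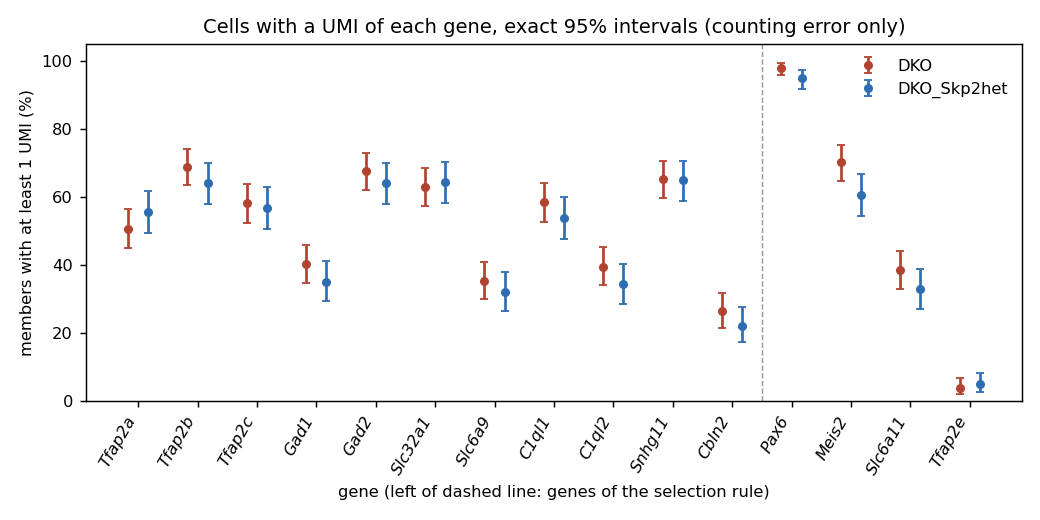
Share of members (y axis, percent) with at least 1 UMI of each gene (x axis) in DKO (red) and DKO_Skp2het (blue); points are shares and bars exact 95% intervals. Left of the dashed line stand the 11 genes of the rule, and right of it genes the rule did not use, of which Pax6 is highest at 98.0% and 95.04%.

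Clustering of the 568 members gave 14 clusters, and their leading genes show that the name amacrine cell fits only part of the rule's yield. Cluster sizes are given as counts and were not compared between the libraries, since the leading genes of several clusters differed between them. Clusters 3 to 7, 10 and 12 held 273 cells with the mature pattern: they carried Gad1, C1ql1 and Snhg11 and, in all but cluster 10, Meis2. Cluster 5 nearly lacked Tfap2b, which was detected in 3 of its 28 DKO cells and 3 of its 21 DKO_Skp2het cells. Cluster 13 (17 cells) was led by Lamp5 and held Slc6a9 and Gjd2, and cluster 14 (7 cells) was led by Pnoc and Isl1. Cluster 1 (109 cells) was led by Ebf3, Nhlh2 and Nfix. Its median cell held 1 of 6 amacrine markers, the fewest of any cluster. Another 4 clusters, 162 cells or 28.5% of members, were led by genes of precursors or of other cell types, and are the ones left out wherever values without the 4 clusters are given. Cluster 1 was not left out there. With it these clusters held 271 cells, 47.7% of members, 44.8% in DKO and 51.1% in DKO_Skp2het. Cluster 2 (99 cells) was led by genes of newborn neurons and precursors, among them Neurod4, Igfbpl1, Sox11 and Ptf1a. Cluster 8 (24 cells) was horizontal cell-like, with 5 of 5 horizontal markers detected in the median cell and Lhx1 and Calb1 among its leading genes. Cluster 9 (21 cells) was rod-like, with 9 of 10 rod markers in the median cell and a median of 15229 UMIs. Cluster 11 (18 cells) was led by Itm2a, Fgf15, Sparc and Apoe, and 12 of its cells (66.7%) were among the highest doublet scores. These 4 clusters held 89 DKO members (29.1%) and 73 DKO_Skp2het members (27.9%). Clustering at a lower and a higher resolution gave 9 and 17 clusters, with adjusted Rand indices of 0.656 and 0.730 against the 14.

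**Figure D2:**
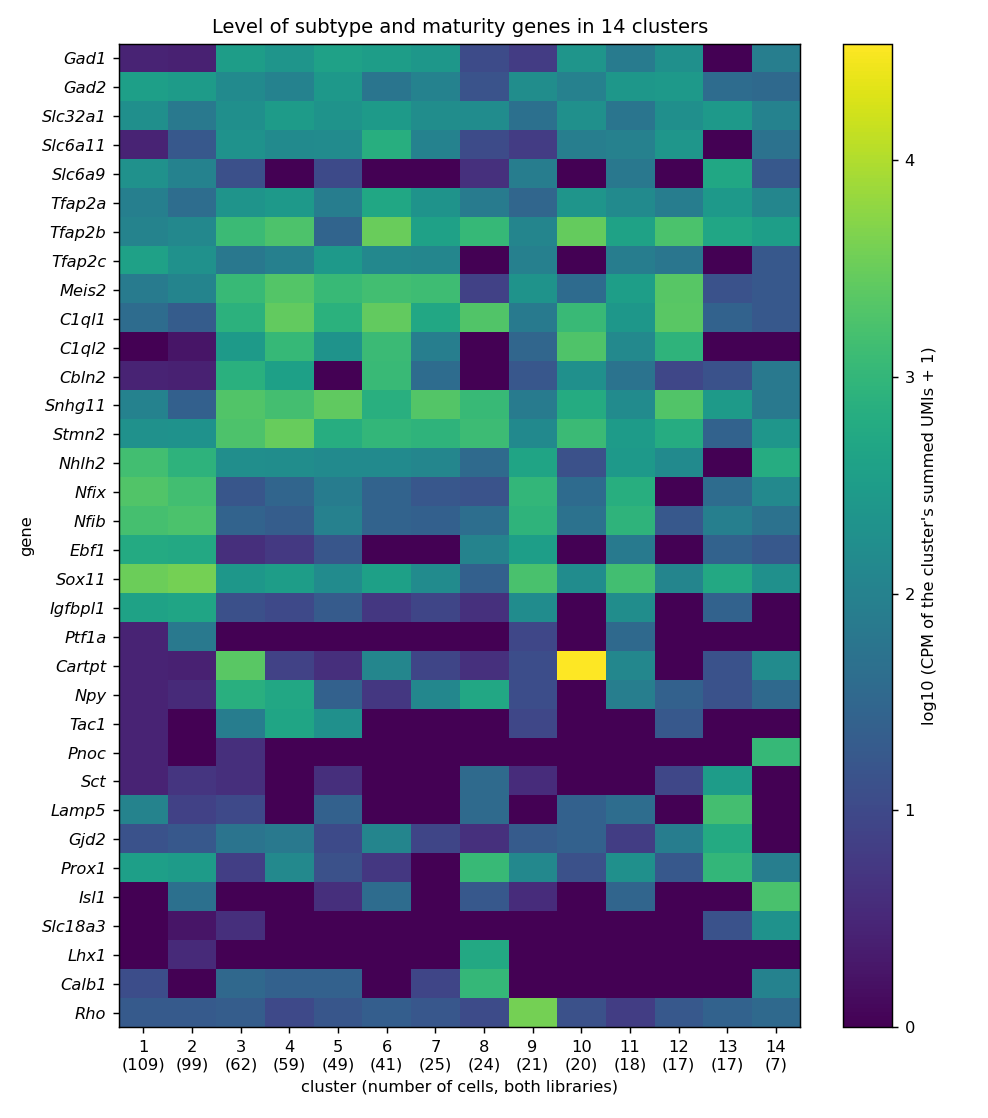
Level of selected genes (rows) in the 14 clusters of members (columns, with the number of cells of both libraries), as log10 of the CPM of the cluster's summed UMIs plus 1. Gad1, Meis2, C1ql1 and Snhg11 fill clusters 3 to 7 and 12, Nhlh2, Nfix and Sox11 fill clusters 1 and 2, and Cartpt reaches its highest level in cluster 10.

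To describe transmitter classes, a cell was called GABA when it held a UMI of Gad1 or Gad2 and none of Slc6a9, and glycine in the opposite case. In DKO 176 cells (57.5%) were GABA, 16 (5.23%) glycine, 92 (30.1%) held both and 22 (7.19%) neither. In DKO_Skp2het 143 (54.6%) were GABA, 12 (4.58%) glycine, 72 (27.5%) both and 35 (13.4%) neither. All class intervals of the libraries overlapped, among them neither at 4.56 to 10.7 and 9.48 to 18.1. The rule holds 3 genes tied to GABA release and 1 glycine transporter, so it favours GABA cells. Slc6a9 was detected in 35.3% of DKO and 32.1% of DKO_Skp2het members, and in 32.7% (25.6 to 40.5) and 20.4% (15.7 to 25.7) of 162 and 270 rods, a cell type that is not glycinergic. In microglia it was detected in 0 of 36 cells, which allows up to 9.74%, and in 2 of 45. In DKO the member share was thus not separated from that of rods, while in DKO_Skp2het it was higher (26.5 to 38.1 in members). A single Slc6a9 UMI is not read as a glycine phenotype in either library. A Gad gene was detected in 87.6% and 82.1% of members against 20.99% and 12.2% of rods. Gad1, Gad2 and Slc6a9 are genes of the rule, and the rods were taken from barcodes outside the members. The gaps between members and rods thus follow in part from how the cells were chosen and are a description.

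Slc6a9 was detected mostly in cells without Gad1. Among DKO cells with a Gad1 UMI, 6 of 123 (4.88%, 1.81 to 10.3) had Slc6a9, and among DKO cells with Gad2 but no Gad1, 86 of 145 did (59.3%, 50.8 to 67.4). In DKO_Skp2het these were 2 of 92 (2.17%, 0.264 to 7.63) and 70 of 123 (56.9%, 47.7 to 65.8). Gad1 and Slc6a9 thus met in 1.96% and 0.763% of members, where the product of their shares is 14.2% and 11.3%. For any Gad gene with Slc6a9 the product was 30.9% and 26.3%, close to the shares observed. The split between Gad1 and Gad2 was chosen after the values were seen, and the 3 genes belong to the rule, so this is a description.

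Genes of immature neurons did not move as one between these groups. Of 13 genes on that list, 6 were higher in cells with Gad2 but no Gad1 in both libraries (Sox4, Sox11, Stmn1, Igfbpl1, Nhlh1 and Nhlh2), 6 were higher in cells with Gad1 (Dcx, Stmn2, Elavl2, Elavl4, Gap43 and Tubb3) and Elavl3 differed in order between the libraries. Sox11, a transcription factor of immature neurons, stood at 3035 CPM in DKO cells with Gad2 but no Gad1 and at 492.6 CPM in those with Gad1. In DKO_Skp2het it stood at 2882 and 217.7 CPM. Nfix, a nuclear factor I gene, stood at 1235 against 109.98 CPM in DKO and at 1557 against 50.5 CPM in DKO_Skp2het. The order was opposite for Stmn2, a growth-associated tubulin regulator, which stood at 310.7 CPM in Gad2-only and 1474 CPM in Gad1 cells of DKO and at 279.4 and 1604 CPM in DKO_Skp2het. Median depth was 6745 UMIs in the Gad2-only and 6203 in the Gad1 cells of DKO, and 5273 and 5615.5 in DKO_Skp2het. Gad1 (ENSMUSG00000070880) lies on chromosome 2 at 70553072 to 70602014 of GRCm38, Gad2 (ENSMUSG00000026787) on chromosome 2 at 22622205 to 22693874 and Slc6a9 (ENSMUSG00000028542) on chromosome 4 at 117834506 to 117875198.

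The classes followed the clusters. Cells with both genes made up 60.6% of cluster 1, 67.7% of cluster 2 and 66.7% of the rod-like cluster 9. Clusters 3 to 7, 10 and 12 were 70.0% to 100% GABA, and 5 of these 7 clusters held no cell with both. Cluster 13 was 82.4% glycine (14 of 17 cells), and 83.3% of the horizontal cell-like cluster 8 held neither. In cluster 13 Slc6a9 stood at 461.6 CPM in DKO and 617.6 CPM in DKO_Skp2het, while Gad1 had no UMI there in either library. Glycine cells of the whole set numbered 16 and 12, so their summed values rest on few cells.

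GABA cells were set against glycine cells within each library, on log2 of CPM plus a pseudocount of 5, which understates differences of low genes. Of 6432 genes with at least 50 UMIs over both classes and libraries, 451 (7.01%) were over 2-fold higher in GABA cells in both libraries and 80 (1.24%) over 2-fold higher in glycine cells in both. The sign was the same in both libraries for 58.3% of genes, and 110 genes were past 2-fold in opposite directions. Gad1, Gad2 and Slc6a9 defined the classes and are no result. Among other genes, Rd3l had 821 UMIs in the GABA and 1 in the glycine cells of DKO, and 587 and 0 in DKO_Skp2het. Syt7, a calcium sensor of vesicle release, had 319 and 190 UMIs in GABA cells and none in glycine cells. Slc6a11, the GABA transporter GAT3, had 223 and 151 UMIs in GABA cells and none in glycine cells. Filip1l and Gng8, a G protein gamma subunit, followed the same pattern. All of these genes reached 50 UMIs through GABA cells, so their place is a description.

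The filter was over the UMIs of both classes, and 16 and 12 glycine cells stood against 176 and 143 GABA cells. A gene confined to glycine cells needed a far higher level to be tested, so the numbers of genes in each direction cannot be compared. Lamp5, a lysosome-associated membrane protein of neurons, stood at 501.8 CPM in glycine and 0.852 CPM in GABA cells of DKO, and at 749.0 and 5.75 CPM in DKO_Skp2het. Nfia, a nuclear factor I gene, stood at 391.1 against 84.3 CPM in DKO and at 480.1 against 56.4 CPM in DKO_Skp2het. Gjd2, the connexin of the electrical synapses of AII amacrine cells, stood at 236.2 against 46.9 CPM and at 134.4 against 27.6 CPM. Car10, Zfp536, Ccsap, Neurod1 and Otx2 were also among the largest differences of this direction. Impg2, a gene of the photoreceptor matrix, was among them too, at 250.9 against 10.2 CPM in DKO and 57.6 against 5.75 CPM in DKO_Skp2het. The rod-like cluster held 1 glycine cell of DKO, with 47879 of the 135507 UMIs summed over the DKO glycine cells. The part of that cell in the DKO glycine values was not tested. Of the glycine cells of both libraries, 14 were in cluster 13, 8 in cluster 1, 3 in cluster 2 and 2 in cluster 11. The glycine values are thus not those of cluster 13 alone. Otx2, for example, stood at 225.2 CPM in cluster 2 and at 52.3 CPM in the other members. By list, 4 of 5 AII genes (Gjd2, Dab1, Prox1 and Nfia) were glycine-high and none GABA-high. Of 7 genes of GABA handling 5 were GABA-high, 3 of them outside the class definition, and of 6 C1q-like and cerebellin genes, secreted synaptic organizers, 4 were GABA-high. Of these 4, C1ql1, C1ql2 and Cbln2 are genes of the rule, and C1ql3 had 47 and 19 UMIs in GABA cells and 2 and 0 in glycine cells. The 5 neuropeptide genes with enough UMIs (Npy, Vip, Tac1, Sst and Cartpt) reached that number through GABA cells, so their place among the GABA-high genes is a description. Of 24 S phase genes none was past 2-fold in either direction.

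Peptide cells were few, and they were found in the GABA clusters and also outside them, as in the horizontal cell-like cluster 8. A cell was counted with at least 3 UMIs of a peptide gene, since single UMIs of several of them were also found in microglia. With any of 18 peptide genes there were 50 such cells in DKO (16.3%, 12.4 to 20.97) and 43 in DKO_Skp2het (16.4%, 12.1 to 21.5). This share was not counted in the barcodes outside the members, and part of it is Npy, which was not restricted to members. Of the GABA cells 21.02% (37 of 176) and 22.4% (32 of 143) held a peptide, and of the cells with both transmitter genes 4.35% (4 of 92) and 0 of 72, which allows up to 4.99%. Cells with neither gene held one in 36.4% (8 of 22) and 31.4% (11 of 35), and these included Npy in horizontal cell-like cells. No member had a UMI of Adcyap1, Trh, Nts, Prok2 or Nppb.

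Cartpt and Sst carry the results on peptide level and rarity. Of the peptide genes searched, they were also the 2 whose promoter window held a cAMP response element. The element was searched as TGACGTCA, which reads the same on both strands, in windows from 250 bases before to 50 bases after the RefSeq start (GRCm38.p6). Of 18 peptide genes, 15 were matched to a window. The element was found in 2 of these 15 and in 549 of 27025 genes (2.03%), counting a gene when any of its windows held it. The 30 bases around each match are shown 5′ to 3′ on the gene's strand, with the element in capitals.
Sst, chr16:23890874-23890903, minus strand, 48 bases before the RefSeq start: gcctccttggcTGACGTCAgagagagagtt
Cartpt, chr13:99900777-99900806, minus strand, 112 bases before the RefSeq start: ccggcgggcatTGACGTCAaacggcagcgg
Both stretches lie within the GENCODE span of their gene, which starts farther upstream. A match is a description of these letters and not evidence of a bound site. The AP-2 motif GCCNNNGGC, also the same on both strands and without overlap to the other, was found in 1 of 8 matched rule genes (Gad2). Over all 27025 genes it was found in 18.5%.

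Cartpt, which encodes a secreted neuropeptide regulated by cocaine and amphetamine, was found largely in members. In DKO 17 members held at least 3 UMIs, from 4 to 165 with a median of 68, and in DKO_Skp2het 16 members did, from 3 to 437 with a median of 89. Members held 95.6% and 93.9% of all Cartpt UMIs of the libraries. Most of these cells were in clusters 10 and 3. In cluster 10, which also carried Pou3f3 and Nfia, 6 DKO cells held 68 to 165 UMIs, a median of 3.29% of all UMIs of the cell. The 8 DKO_Skp2het cells of that cluster held 50 to 437, a median of 5.98%. In cluster 3 the 8 DKO cells held 4 to 160 UMIs (median 0.707% of the cell) and the 5 DKO_Skp2het cells 3 to 124 (median 0.392%). Over all members Cartpt stood at 549.9 CPM (1377 UMIs) in DKO and 1202 CPM (2266 UMIs) in DKO_Skp2het, a ratio of 2.18 (2.04 to 2.34). That ratio rests on these few cells, since the shares of cells with at least 3 UMIs were 5.56% (3.27 to 8.75) and 6.11% (3.53 to 9.73). The ranges of the cells' counts overlapped between libraries. Cartpt (ENSMUSG00000021647) lies on chromosome 13 at 99898489 to 99901091.

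Tac1, the precursor of substance P, was held by 14 DKO members (3 to 28 UMIs, median 7) and 13 DKO_Skp2het members (3 to 25, median 7). Cluster 4, also led by Elavl2 and Lhx9, held 7 and 8 of these cells, cluster 5 held 4 and 3, and cluster 3 held 3 and 1. All but 1 were GABA cells. Its level was alike in the libraries, at 67.5 CPM (169 UMIs) and 68.9 CPM (130 UMIs), a log2 difference of 0.03, and 86.2% and 79.3% of all Tac1 UMIs were in members. Only 2 barcodes outside the members reached 3 UMIs in each library. Tac1 (ENSMUSG00000061762) lies on chromosome 6 at 7554879 to 7565834.

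Npy, which encodes neuropeptide Y, was not restricted to members. It was held by 19 DKO members (3 to 72 UMIs, median 7) and 15 DKO_Skp2het members (3 to 124, median 5), but 224 and 159 barcodes outside the members also held at least 3 UMIs. Members held 19.3% and 14.4% of all Npy UMIs. At least 1 UMI of Npy was found in 9.80% and 11.8% of members and in more of the other barcodes, 19.9% and 14.3%. The horizontal cell-like cluster 8 held 6 of the 19 and 8 of the 15 cells, and cluster 3 held 7 and 2. Npy and Tac1 were found together in 4 DKO cells and 2 DKO_Skp2het cells. The highest Npy cell of each library, with 72 and 124 UMIs, was in cluster 4 and held Tac1 as well.

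Vip, Sst and Pnoc marked single cells or small groups. Vip, vasoactive intestinal peptide, was held by 1 DKO cell (35 UMIs) and 2 DKO_Skp2het cells (12 and 52 UMIs), and all 3 also held Cartpt. Sst, somatostatin, was held by 1 member in each library, with 145 and 312 UMIs, and both cells also held 5 UMIs of Gal. In DKO_Skp2het 3 barcodes outside the members held at least 3 UMIs of Sst too, up to 218, and in DKO none did. Pnoc, the nociceptin precursor, was held by 4 and 2 members, all in cluster 14, and by 11 and 8 barcodes outside the members. Sct, secretin, was held by 4 and 1 members, of which 3 and 1 were in cluster 13, and by 8 and 13 barcodes outside. Penk had 6 and 3 UMIs in members and 384 and 467 outside.

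**Figure D3:**
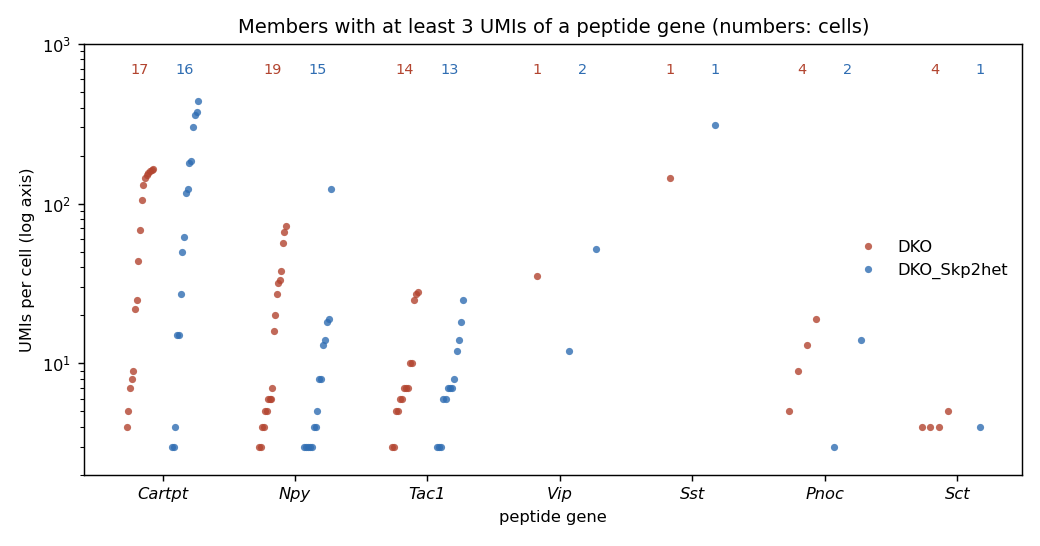
UMIs per cell (y axis, log scale) of 7 peptide genes in the members with at least 3 UMIs; each point is 1 cell of DKO (red) or DKO_Skp2het (blue), drawn from lowest to highest, and the numbers above give the cells. Cartpt cells reach 165 and 437 UMIs, and Sst is held by 1 cell in each library.

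Other named subtypes had few or no cells. Isl1, a factor of the cholinergic starburst cells, stood at 1653 and 1866 CPM in the 5 DKO and 2 DKO_Skp2het cells of cluster 14, and Slc18a3, the vesicular acetylcholine transporter, had 11 and 4 UMIs in all members. Chat, the enzyme that makes acetylcholine, had 1 UMI in DKO and 0 in DKO_Skp2het, and Slc5a7 had none. In cluster 13, where Gjd2 stood at 683.1 and 352.9 CPM, Prox1 and Dab1 were also present, at 1016 and 609.3 CPM in DKO and 1015 and 352.9 CPM in DKO_Skp2het. Th, the dopamine-synthesis enzyme, had 2 UMIs in each library, and Slc6a3, the dopamine transporter, and Slc17a8, the vesicular transporter of glutamatergic amacrine cells, had none. Slc6a5, the second glycine transporter, had 14 and 15 UMIs.

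The libraries were then compared over the summed UMIs of all members, as the log2 difference of CPM plus 5 in DKO_Skp2het minus DKO. Of 8751 genes with at least 50 UMIs, 182 (2.08%) were over 1.5-fold higher and 164 (1.87%) over 1.5-fold lower in DKO_Skp2het, and the median of all genes was 0.02. The 11 rule genes gave 2 above and 9 below 0, none past 1.5-fold, with a median of -0.14. The 7 genes of GABA handling had a median of -0.04 and the 3 of glycine handling 0.14, none past 1.5-fold. Of 23 amacrine transcription factors outside the rule, 7 were above and 16 below 0 and 1 was past 1.5-fold. That 1 was Ptf1a, at 68 UMIs (27.2 CPM) in DKO and 23 UMIs (12.2 CPM) in DKO_Skp2het, a ratio of 0.449 (0.267 to 0.730). Ebf1 stood at 306.3 and 207.9 CPM, a ratio of 0.679 (0.599 to 0.767), and its UMIs lay mostly in clusters 1 and 2. Without the 4 clusters, 21 of these factors remained above 50 UMIs, 12 above and 9 below 0, with a median of 0.03. Of 16 synaptic genes, 10 were above and 6 below 0 and none was past 1.5-fold.

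Markers of other cells moved with the library, and their part in the differences was not tested. All 10 rod markers were over 1.5-fold lower in DKO_Skp2het members, at a summed 1771 CPM in DKO and 860.1 CPM in DKO_Skp2het. Of 4 horizontal cell markers 3 were over 1.5-fold higher, with summed levels of 287.2 and 506.4 CPM. Without the 4 clusters, 2 rod markers passed 50 UMIs, both higher in DKO_Skp2het, and 2 horizontal markers passed, neither past 1.5-fold. Ganglion cell markers summed to 183.7 and 322.9 CPM and Müller glia markers to 320.7 and 459.7 CPM over all members. Microglia markers summed to 16.8 and 19.1 CPM, and none reached 50 UMIs. Several genes with large differences lost them without those clusters: Prph2 went from -1.06 to 0.57, Rcvrn from -1.03 to 0.48, C2cd2l from -0.98 to -0.09, Itm2a from 2.53 to 0.09, Kcnip4 from 1.42 to -0.24 and Col9a1 from 1.55 to -0.66.

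Lpl, lipoprotein lipase, had the largest difference among genes lower in DKO_Skp2het, and it did not shrink without those clusters. It had 251 UMIs in 90 DKO cells (100.2 CPM) and 51 UMIs in 38 DKO_Skp2het cells (27.04 CPM), a ratio of 0.270 (0.196 to 0.366). It was lower in DKO_Skp2het in all 6 clusters with at least 15 UMIs. In cluster 5 it stood at 496.8 and 106.0 CPM, in cluster 7 at 612.8 and 127.8 CPM and in cluster 12 at 513.8 and 223.1 CPM. In the barcodes outside the members Lpl stood at 22.6 and 18.7 CPM. Without the 4 clusters the log2 difference was -2.003 against -1.72 over all members. Lpl (ENSMUSG00000015568) lies on chromosome 8 at 68880491 to 68907448.

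Further genes lower in DKO_Skp2het had fewer UMIs. Islr2, a membrane protein of axon extension, had 66 UMIs in DKO and 13 in DKO_Skp2het, a ratio of 0.262 (0.132 to 0.479). Lypd1, a modulator of nicotinic receptors, had 106 and 33 UMIs, a ratio of 0.413 (0.271 to 0.616). Lifr, the receptor of leukemia inhibitory factor, had 66 and 18 UMIs, a ratio of 0.362 (0.202 to 0.617), and 25 of the 66 lay in the rod-like cluster. Without the 4 clusters their log2 differences were -1.62, -1.24 and -1.18. Gjd2 had 126 and 45 UMIs, a ratio of 0.474 (0.330 to 0.671). Hist1h2ap, at 82 and 18 UMIs, is a mitotic gene of the rule.

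Among the genes higher in DKO_Skp2het, Cwc22, a splicing factor, had 32 UMIs in DKO and 158 in DKO_Skp2het, a ratio of 6.56 (4.46 to 9.91), and was higher in all 6 clusters with at least 15 UMIs. It stood at 18.9 and 86.4 CPM in the barcodes outside the members, so the difference was not particular to them. Ocel1 had 20 and 66 UMIs, a ratio of 4.38 (2.62 to 7.63), and stood at 5.62 and 17.3 CPM outside. Cbln4, a secreted cerebellin of synapses, had 48 UMIs in 15 DKO cells and 121 UMIs in 22 DKO_Skp2het cells, a ratio of 3.35 (2.38 to 4.78). Of these UMIs 35 and 90 lay in cluster 3, in 7 and 12 cells, and outside the members it stood at 0.959 and 0.880 CPM. Sst, at a ratio of 2.87, and Vip, at 2.33, rest on the single cells described above. Fam46a, Onecut3 and Lmo1 were also over 1.5-fold higher, at log2 differences of 1.29, 1.36 and 1.27. Without the 4 clusters these were -0.18, 0 and 0.70.

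**Figure D4:**
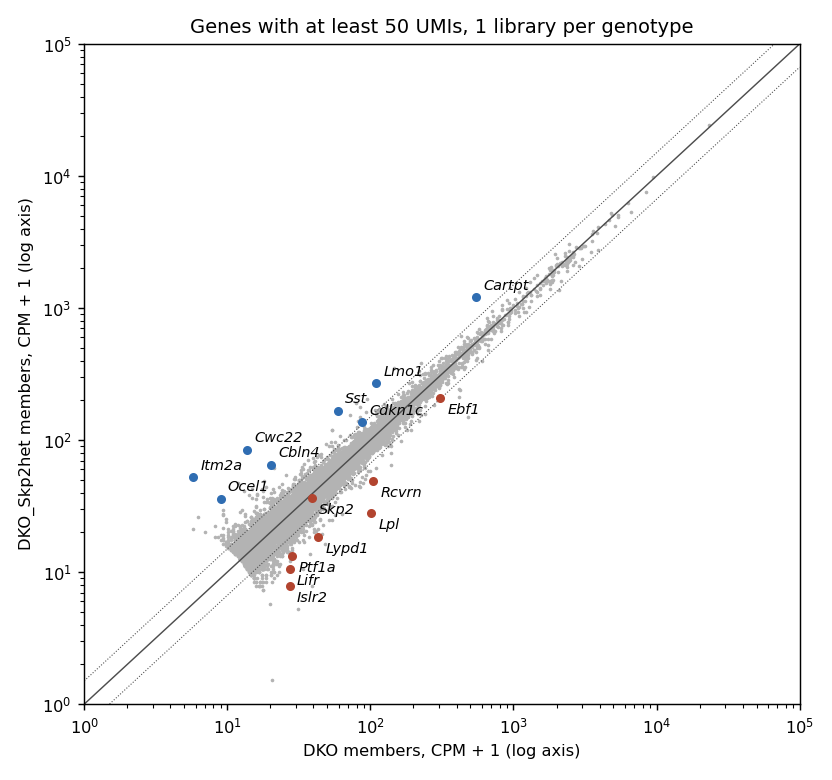
Summed level of each gene with at least 50 UMIs in DKO members (x axis) and DKO_Skp2het members (y axis), both as CPM plus 1 on log axes; each point is a gene, the solid line marks equal levels and the dotted lines 1.5-fold. Lpl lies below the lines at 100.2 and 27.04 CPM, Cwc22 above them at 12.8 and 83.8 CPM, and Skp2 near the solid line.

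The targeted genes were weakly detected in members. Skp2 had 95 UMIs in DKO (37.9 CPM) and 67 in DKO_Skp2het (35.5 CPM), a ratio of 0.936 (0.675 to 1.29). The interval, which covers counting error only, includes equal levels and lies above a drop in proportion to the lost copy. With 1 library per genotype it holds no spread between animals or libraries, so it cannot exclude such a drop in the animals. In the barcodes outside the members Skp2 stood at 85.2 and 58.7 CPM. Rb1 had 53 and 26 UMIs, a ratio of 0.651 (0.391 to 1.06). The p107 gene Rbl1 had 60 and 43 UMIs, with a ratio of 0.952 (0.628 to 1.43). A 3′ tag outside a deleted part does not check the deletion. Among the inhibitors of cyclin-dependent kinases, Cdkn1b had 90 and 78 UMIs and a log2 difference of 0.18. Cdkn1c, which encodes p57, was over 1.5-fold higher in DKO_Skp2het, at 86.7 CPM (217 UMIs) and 136.3 CPM (257 UMIs), a ratio of 1.57 (1.31 to 1.89). Of its DKO_Skp2het UMIs 111 lay in 9 cells of cluster 6 (1047 CPM), where DKO had 18 UMIs in 4 cells (149.4 CPM). Of 8 clusters with at least 15 UMIs of Cdkn1c, 5 were higher and 3 lower in DKO_Skp2het, the lower ones being cluster 9 (38 and 9 UMIs), cluster 11 (32 and 44 UMIs, 484.5 and 411.02 CPM) and cluster 12 (14 and 1 UMIs).

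S phase genes were present in cells chosen for few mitotic transcripts. The 27 S phase genes summed to 1808 CPM (1755 to 1861) in DKO members and 1653 CPM (1596 to 1712) in DKO_Skp2het members. In microglia they summed to 457.3 and 578.6 CPM, in rods to 1116 and 1131 CPM and over all barcodes to 3183 and 3380 CPM. Members held 5.43 S phase UMIs per UMI of G2 and M phase genes outside the rule in DKO and 6.56 in DKO_Skp2het, against 0.949 and 1.12 over all barcodes and 2.67 and 3.53 in rods. The rule limits mitotic genes, so a high ratio in members follows in part from how they were chosen. The rods were held to the same mitotic limit, while microglia and all barcodes were not. Within members the level followed the clusters: it was 2752 and 2391 CPM in the precursor cluster 2 and 3028 and 3120 CPM in cluster 11. Among the GABA clusters, it lay between 646.0 and 1084 CPM in clusters 3, 4, 6, 7 and 10, at 1312 and 1745 CPM in cluster 5 and at 1766 and 1078 CPM in cluster 12. The lowest of these, 646.0 CPM (409.5 to 969.3) in DKO cluster 10, was not separated from the microglia beyond counting error. In DKO_Skp2het, clusters 3 (621.4 to 943.2), 7 (600.6 to 1032.5) and 10 (552.1 to 1091.4) were also not separated from the microglia (499.8 to 666.2).

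Summed over all members, S phase genes differed little between the libraries, at a ratio of 0.915 (0.874 to 0.958). Of 27 genes 8 were above and 19 below 0, none past 1.5-fold, and the median log2 difference was -0.18. Without the 4 clusters 6 of 22 were above and 16 below 0, with a median of -0.19. Within single clusters the S phase sums moved both ways, with intervals that did not overlap. They were lower in DKO_Skp2het in cluster 1 (2286 and 1587 CPM), cluster 2 and cluster 14 (2639.5 and 987.7 CPM, 5 and 2 cells). In cluster 5 and cluster 8 (518.8 and 1602 CPM) they were higher. E2f1, the transcription factor that pocket proteins bind, stood at 134.6 CPM (337 UMIs) in DKO and 95.98 CPM (181 UMIs) in DKO_Skp2het, a ratio of 0.713 (0.592 to 0.857). It was lower in 5 of 6 clusters with at least 15 UMIs, among them clusters 1, 2, 9 and 11. Its UMIs lay mostly in clusters 1 and 2, with 46 and 181 in DKO and 27 and 66 in DKO_Skp2het. The 2 GABA clusters among the 6 went opposite ways. Cluster 5 had 9 UMIs in DKO and 17 in DKO_Skp2het, and cluster 12 had 21 and 2. After every cell was thinned to 2000 UMIs, E2f1 was detected in 18.3% of DKO members (14.1 to 23.1) and 11.5% of DKO_Skp2het members (7.86 to 15.9), unthinned in 39.9% and 30.5%. In thinned microglia the shares were 8.33% and 11.1% and in rods 13.0% and 11.5%. The DKO_Skp2het member share was thus not separated from that of rods or microglia. The DKO share overlapped the intervals of rods (8.21 to 19.1) and microglia (1.75 to 22.5). Neither population was shown to lack E2f1, so these shares do not set a background level. The 7 G2 and M phase genes with enough UMIs had a median of -0.20, with 3 above and 4 below 0. Cdca8, a mitotic gene of the chromosomal passenger complex, was the 1 past 1.5-fold, at 74 and 31 UMIs.

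**Figure D5:**
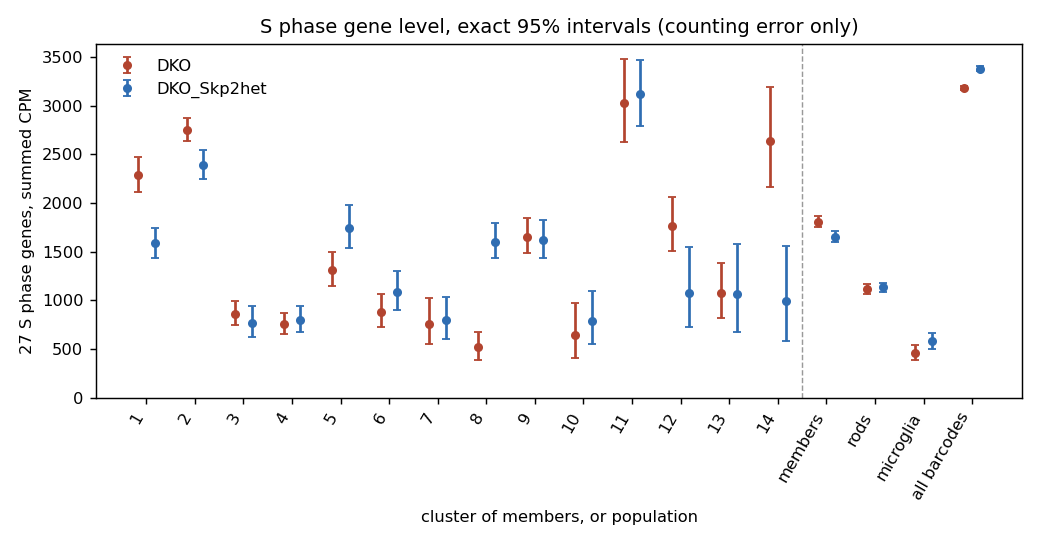
Summed CPM of 27 S phase genes (y axis) in each cluster of members and, right of the dashed line, in all members, rods, microglia and all barcodes; points are DKO (red) and DKO_Skp2het (blue), bars exact 95% intervals. Clusters 11 and 2 are the 2 highest in each library, clusters 3, 4, 6, 7 and 10 lie between 646.0 and 1084 CPM, and microglia lie at 457.3 and 578.6 CPM.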

How the data were processed

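Single-cell libraries of peripheral retina were made with the Single Cell 3′ v2 kit, per the labels' protocols, and Cell Ranger 2.2.0 and mm10 are listed in the submitters' processing notes. Each library was deposited as whole-number UMI counts, without normalization; how the authors filtered barcodes is not given in the sources used here. Of 27998 genes listed, 27645 matched GENCODE release M21 (GRCm38). Members and gene lists were chosen with earlier results of these data known. Counts were summed over members and given as CPM. Log2 differences used a pseudocount of 5 and genes with at least 50 UMIs. Called means past 1.5-fold between libraries, or past 2-fold in both libraries between classes, with no p-value. Named genes come from fixed lists and the 10 largest differences per direction, leaving out unnamed clones, mitochondrial genes and markers of other cells, which are named only to describe clusters or the differences they move with.

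Intervals are exact: Clopper-Pearson for shares, Poisson for counts and conditional binomial for ratios. UMIs of 1 cell are not independent, so ratio intervals of genes held by few cells are too narrow. The background cells were barcodes outside the members. Microglia held at least 4 of 8 microglia markers, with no mitotic limit. Rods held at least 6 of 10 rod markers, were not microglia and stayed under the same 2000 CPM of mitotic genes as the members. Doublets were scored with Scrublet (scanpy 1.11.5), the highest 0.8% per 1000 barcodes being marked and kept. Members were clustered on 20 principal components of 1500 genes with leidenalg 0.10.2 at resolution 1. The difference procedure was tested on simulated counts. Alternatives covered the rule's thresholds, doublets, depth, horizontal markers, pseudocount, the gene filter and scaling. The alternative without 4 clusters, the clustering resolutions and the split by Gad1, with the immature neuron genes in it, were chosen after seeing the data. Software was matplotlib 3.10.9, scikit-learn 1.9.0, igraph 0.11.9, pandas 2.3.3, scipy 1.17.1 and numpy 2.4.6 under Python 3.11.15.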

Additional observations from a re-analysis of the deposited data

How the results depend on the processing

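The ratio of member shares kept its direction under all 8 alternatives, but moved from 0.597 to 0.806 with the common depth floor. Of the shares by class, requiring 5 rule genes gave 66.7% and 65.6% GABA and 2.86% and 1.88% glycine cells (DKO and DKO_Skp2het), and leaving out the 4 clusters gave 68.7% and 66.1% GABA cells. Requiring 3 rule genes gave 8.96% glycine cells in DKO and thinning to 2000 UMIs gave 2.17%, while 2 UMIs for a class gave 45.0% GABA cells in DKO_Skp2het. Cells with at least 1 UMI made up 8.82% and 10.3% for Cartpt, 9.80% and 11.8% for Npy and 9.80% and 8.78% for Tac1; with 3 UMIs these were 5.56% and 6.11%, 6.21% and 5.73%, and 4.58% and 4.96%. After thinning Npy was at 6.54% and 5.34% and Tac1 at 6.54% in DKO.

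Counts of genes over 1.5-fold higher and lower in DKO_Skp2het were 182 and 164, and became 298 and 258 with genes from 20 UMIs, 295 and 279 with a pseudocount of 1, 60 and 38 with a pseudocount of 20, and 75 and 58 after thinning. Genes higher in GABA and glycine cells numbered 451 and 80. They became 924 and 147 with 5 rule genes, 791 and 185 from 20 UMIs, 296 and 36 with a pseudocount of 20, and 145 and 16 after thinning. The glycine count alone moved to 52 with 2 UMIs for a class, 52 with median-of-ratios scaling and 48 without the mitotic limit. The cause of these moves was not tested where the alternative does not itself change the genes or cells counted.

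The S phase median ranged from -0.22 without the mitotic limit to 0.01 after thinning, and the G2M median from -0.34 with 3 rule genes to -0.09 without the 4 clusters; thinning left 2 S phase genes and no G2M gene with enough UMIs. Reversed single genes were C2cd2l (0.45), Pcdhb7 (0.33), Col9a1 (-1.29) and Prph2 (0.13) after thinning; Kcnip4 (-0.18) and Lmo1 (-0.34) without cells with 2 horizontal markers; Onecut3 (-0.10) with 5 rule genes; and, without the 4 clusters, Col9a1 (-0.66), Fam46a (-0.18), Kcnip4 (-0.24), Prph2 (0.57) and Rcvrn (0.48). Lpl, Islr2, Lifr, Lypd1, Cwc22, Ocel1 and Cbln4 stayed past 1.5-fold in all 13 alternatives run. No paired analysis was possible because each genotype has 1 library. With 1 library per genotype, genotype, animal, litter and library preparation cannot be told apart.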

Other observations

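Genes outside the rule and the fixed lists were also far higher in members than in other barcodes; they were picked after their values were seen, and since members were chosen by their own transcripts, these values are a description. Kcnip1, a potassium channel subunit, stood at 80.7 CPM in DKO members and 1.42 CPM in other DKO barcodes, and at 84.8 and 0.922 CPM in DKO_Skp2het. Pcsk1n, an inhibitor of prohormone processing, stood at 1100.3 and 110.5 CPM in DKO and at 1317 and 111.0 CPM in DKO_Skp2het. The barcodes just outside the rule, with 3 of its genes, were low in C1ql2 (4.97 CPM in DKO and 0 in DKO_Skp2het) and Gad1 (4.97 and 12.04 CPM), while Gad2 stood at 195.3 and 220.4 CPM and Nfix at 1090 and 1265 CPM.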
